A study of Mus musculus with 19 samples.

Results

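The genes described here are the secreted and membrane-bound cues of axon guidance and their receptors, followed through mouse embryonic stem cells with and without 2 regulators of the let-7 microRNAs. Trim71 is a ubiquitin ligase that also binds RNA, and Lin28a binds let-7 precursors and keeps them from maturing. Members were chosen by symbol: all semaphorins, plexins other than Plxnb2, neuropilins, ephrins, Eph receptors, Slits, Robos, netrins, netrin-Gs, UNC5 receptors and neogenin (Neo1). Of 21685 gene symbols, 64 matched, and 50 of these reached a filter of log2(10), or 3.32, in 4 or more libraries, as did 14988 genes in all. The 50 comprised 28 ligands and 22 receptors: 15 semaphorins, 7 plexins and neuropilins, 8 ephrins, 10 Eph receptors, 3 Slits, 2 Robos, 2 netrins and 3 netrin receptors. The other 14 (Epha5, Ephb1, Nrp1, Ntn4, Ntng2, Plxna4, Plxnb3, Robo2, Robo3, Sema3c, Sema3g, Sema6d, Unc5c and Unc5cl) lay below that limit. Just inside it were Unc5a, which reached it in 4 libraries with a mean log2 level of 3.17, and Slit3, which reached it in 16 with a mean of 3.61. All 4 libraries of Unc5a were without Lin28a, so the filter took it in through the cells where it was higher. Just outside it were Sema3c with 3 libraries and a mean of 2.99, and Robo3 with 1 library and a mean of 2.99. Dcc was not analysed here.

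Messenger RNA was measured by sequencing in male C57BL/6 cells, cultured in FCS with LIF and enriched on magnetic beads for SSEA-1, a surface antigen of stem cells. In the 4 genotype names the Trim71 state comes before the Lin28a state. WT-WT cells were Trim fl/fl Lin28a fl/fl (n = 4 libraries), KO-WT cells Trim-/- Lin28a fl/fl (n = 4), WT-KO cells Trim fl/fl Lin28a-/- (n = 5) and KO-KO cells Trim-/- Lin28a-/- (n = 5). Trim71 was deleted from the floxed cells by 2 days in 500 nM 4-hydroxytamoxifen, then at least 7 days of culture. The labels do not say whether the controls received a vehicle. Libraries with intact Lin28a came from clones 1 and E3 and those without it from clones 1-4 and C1, so that Lin28a genotype and clone cannot be told apart in any comparison of Lin28a states. WT-WT replicates 1 and 4 and KO-WT replicate 4 were clone 1, the other WT-WT and KO-WT libraries were E3, and WT-KO and KO-KO replicates 1 and 5 were clone 1-4 and their replicates 2 to 4 were C1. The libraries came from 5 days; nothing in the labels says that they were separate cultures beyond that, so the p-values measure the spread between these libraries, which may be partly technical. The fifth KO-WT library in the table was the only one of a further day. With day effects already removed from the deposited values, it held the average of its group, and it was left out.

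Each targeted gene was lower where the labels have it deleted, and each also differed with the state of the other gene. Trim71 stood at a log2 level of 10.21 ± 0.12 (SD, n = 4) in WT-WT and 8.89 ± 0.14 (n = 4) in KO-WT, and at 10.65 ± 0.20 (n = 5) in WT-KO and 9.28 ± 0.18 (n = 5) in KO-KO. Lin28a was 10.13 ± 0.16 in WT-WT and 9.84 ± 0.11 in KO-WT (n = 4 each), against 8.47 ± 0.09 in WT-KO and 8.28 ± 0.06 in KO-KO (n = 5 each). On loss of Trim71, Lin28a was lower by -0.28 ± 0.08 (adjusted p = 0.036, limma) with Lin28a intact and by -0.195 ± 0.07 (adjusted p = 0.0971) without it. On loss of Lin28a, Trim71 was higher by 0.45 ± 0.11 (adjusted p = 0.00431, limma) with Trim71 intact and by 0.38 ± 0.11 (adjusted p = 0.0111) without it. Neither transcript was lost, and the labels do not say which part of either gene was deleted. The 9 embryonic stem cell markers were present in all libraries, with a summed log2 level of 15.19 to 15.39 in the libraries with Lin28a and 15.51 to 15.71 in those without it. The files give no read depth and so no counting error, and all differences are on the deposited log2 scale.

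Axon guidance genes encode short-range and diffusible cues that attract or repel growing axons and migrating cells. Semaphorins act on plexins, with neuropilins as co-receptors for the secreted class. Ephrins are held at the membrane and bind Eph receptor tyrosine kinases on neighbouring cells, with signals passing in both directions. Netrins act through DCC, neogenin and UNC5 receptors, and Slits through Robo receptors. Outside the nervous system the same families act in vessel growth, epithelial boundaries and early embryos.

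Because both deleted genes act on the let-7 pathway, sequences that let-7 can pair with are shown first. The mature let-7 microRNAs in RefSeq share the seed GAGGUAG (bases 2 to 8, in capitals) except let-7j, whose entry reads GAGGUAU. The microRNAs themselves were not measured in these libraries.
let-7a-5p: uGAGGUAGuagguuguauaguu
let-7g-5p: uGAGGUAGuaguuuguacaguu
miR-98-5p: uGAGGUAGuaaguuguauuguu

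The 7 letters that pair with this seed, CTACCTC, were searched on the transcript strand in the 3′ UTR of 1 transcript per gene (GENCODE release M21). They occurred in 13 of the 50 members (26.0%) and in 1353 of 12544 tested genes with a 3′ UTR (10.8%). The members' 3′ UTRs were also longer, with a median of 1432 bases against 1164. The 13 were the ligands Ntn1, Ntn5, Sema3f, Sema4b, Sema4c, Sema4f and Sema4g and the receptors Ephb2, Nrp2, Plxna2, Plxnc1, Plxnd1 and Unc5a. The 5 sites below belong to members with the largest differences described later; capitals mark the 7 letters, and a match is a description of the sequence, not evidence of binding.
Ntn1: aggacaagacatagCTACCTCacggc
Ephb2: cgatcctcctcgctCTACCTCccaag
Plxnc1: atactatttctaacCTACCTCactga
Sema4c: tgcacaggcaccagCTACCTCaggga
Nrp2: taccttgaggtgtcCTACCTCagtgg

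In Ntn1 the site begins at base 242 of a 3′ UTR of 3642 bases, in Sema4c at base 74 of 900, in Nrp2 at base 2072 of 3325, in Plxnc1 at base 1904 of 2320 and in Ephb2 at base 5047 of 7783. The sites of Ntn1, Plxnc1, Sema4c and Nrp2 are followed by an A, as are those of Plxnd1, Sema4f and Sema4g.

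Levels differed widely among the members. Divided by transcript length, the mean log2 level per kilobase in WT-WT was highest for the receptor Epha2, at 8.16, followed by the semaphorin receptor Plxna1 at 7.07 and the membrane-bound ligand Sema4b at 6.90. Among the ephrins Efna4 led with 5.92, and among the netrin receptors Unc5b with 5.79 and Neo1 with 5.69. The Slits were low, between 1.13 (Slit3) and 1.87 (Slit2), and Unc5a, at 1.00, was the lowest of the 50.

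**Figure D1:**
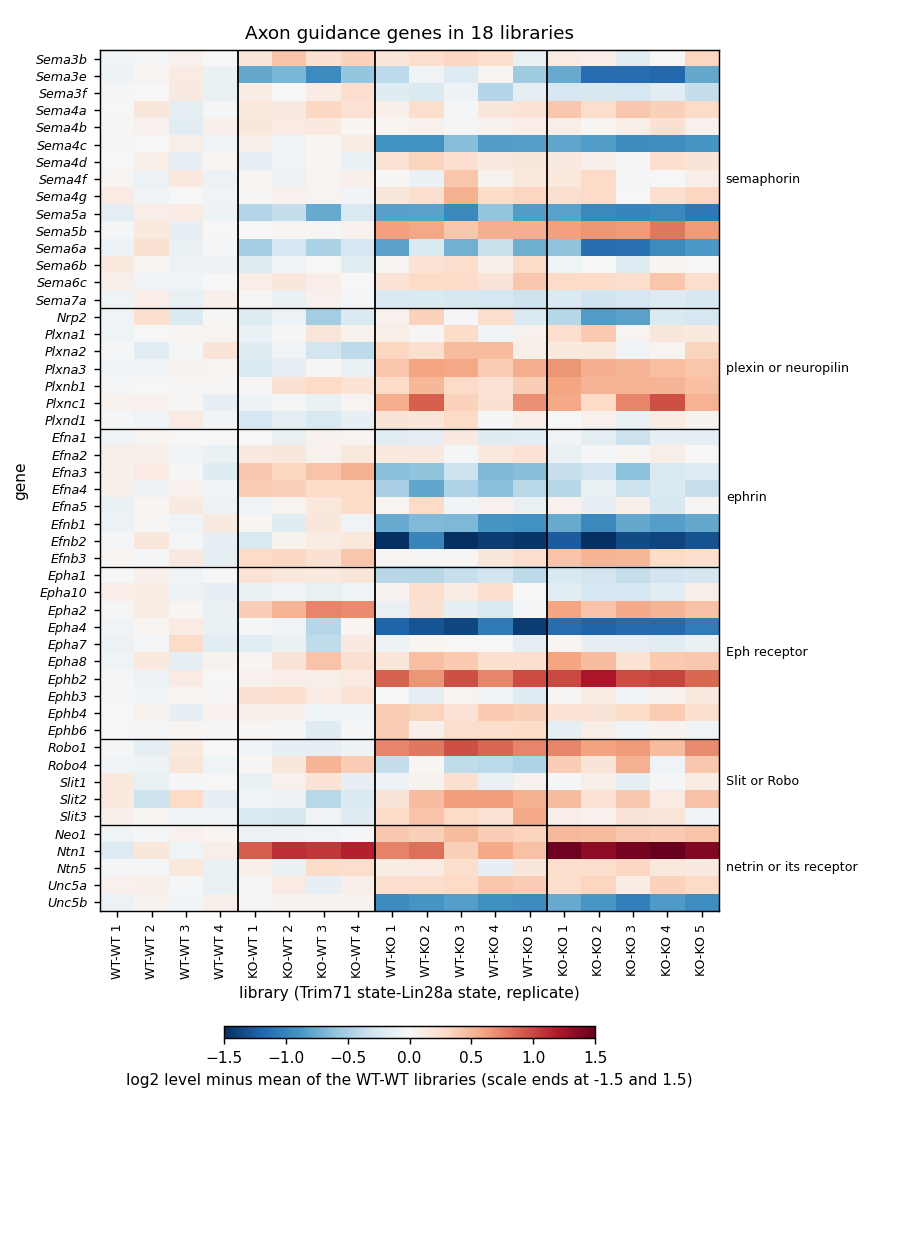
Log2 level of each of the 50 axon guidance genes (rows, by family) in each of 18 libraries (columns, by genotype and replicate), minus the mean of the 4 WT-WT libraries; red is higher and blue lower. Ntn1 is red in all KO-WT, WT-KO and KO-KO libraries, Sema3e is blue in all KO-WT and KO-KO libraries, and Efnb2, Epha4 and Unc5b are blue in all WT-KO and KO-KO libraries.

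Loss of Trim71 was compared within each Lin28a state, KO-WT with WT-WT and KO-KO with WT-KO; these comparisons share no library. Netrin 1 (Ntn1) and the ephrin-A receptor Epha2 were higher, and semaphorin 3E (Sema3e), a secreted ligand of plexin D1, was lower without Trim71 in both. A gene is called where its limma p-value, adjusted by Benjamini-Hochberg over all 14988 genes, is under 0.05. With Lin28a intact 7 members were called, 5 higher and 2 lower, which is 14% of the 50 against 11.2% of all genes (4.74% higher and 6.43% lower); the median difference was 0.02 for the members and -0.0046 for all genes. Without Lin28a 9 were called, 5 higher and 4 lower, which is 18% against 8.38% (4.26% higher and 4.12% lower), with medians of -0.02 and -0.01. Groups did not overlap for 13 and 7 members, against 28.2% and 12.6% of all genes. Of the called members, 5 were called in both, in the same direction each time, where 3.19% of all genes were (1.83% higher and 1.35% lower): Ntn1, Epha2, Efna4 and Efnb3 higher and Sema3e lower. These cultures are bulk samples, in which fewer cells of a type and less RNA per cell cannot be told apart.

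Primitive endoderm markers had positive differences on loss of Trim71, but few of them were called. The summed log2 level of the primitive endoderm list was 11.40 to 11.73 in WT-WT and 11.75 to 12.16 in KO-WT, and 10.16 to 10.58 in WT-KO and 10.66 to 11.05 in KO-KO, without overlap in either comparison. Levels were summed on the linear scale, so Lama1 and Col4a1 make up most of the sum. They stood at 10.32 and 10.53 in WT-WT, and the next marker, Dab2, at 7.17. All 7 tested markers had a positive difference in each, with medians of 0.24 and 0.32. The laminin gene Lama1 was called with Lin28a intact (14.3% of the 7, against 11.2% of all genes). Lama1 and Sox7 were called without it (28.6%, against 8.38%). Of the 6 endothelial markers Esam was called higher and Pecam1 lower in both, with Tek lower with Lin28a intact and Kdr lower without it. That is 50% of the 6 in each, against 11.2% and 8.38% of all genes. The part of these cell types in the results on Trim71 was not tested.

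Among the ligands Ntn1 differed most. In log2 levels, Ntn1 stood at 7.31, 7.68, 7.44 and 7.60 in WT-WT, 8.42, 8.62, 8.57 and 8.67 in KO-WT, 8.25, 8.33, 7.87, 8.07 and 7.94 in WT-KO, and 8.97, 8.85, 8.94, 9.02 and 8.89 in KO-KO. Every KO-WT library lay above every WT-WT library, and every KO-KO library above every WT-KO library. The log2 difference was 1.06 ± 0.11 (SE, 95% interval 0.82 to 1.30, adjusted p = 4.75e-05, limma), a 2.09-fold increase, with Lin28a intact, and 0.84 ± 0.09 (0.64 to 1.05, adjusted p = 4.16e-05) without Lin28a. With Lin28a intact it was the 1 member called at 2-fold or more, and without Lin28a there was none, where 0.0334% of all genes were with Lin28a intact and 0.04% without it. Its call held in both clone sets taken alone and with each library left out.

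Sema3e fell in both comparisons. Sema3e measured 7.88, 8.00, 8.08 and 7.86 in WT-WT, 7.18, 7.27, 6.99 and 7.38 in KO-WT, 7.56, 7.90, 7.76, 8.00 and 7.42 in WT-KO, and 7.20, 6.80, 6.81, 6.77 and 7.18 in KO-KO. The groups did not overlap in either comparison. The log2 difference was -0.75 ± 0.14 (adjusted p = 0.00547, limma) with Lin28a intact and -0.77 ± 0.12 (adjusted p = 0.00108) without it. The KO-KO libraries of clone C1 were the lowest, at 6.77 to 6.81, and those of clone 1-4 read 7.18 and 7.20. Clones E3 and C1 alone gave differences of -0.90 and -1.09, and clones 1 and 1-4 alone gave -0.46 (adjusted p = 0.0503) and -0.30 (adjusted p = 0.0899), where both calls were lost. With only WT-WT and KO-WT in the fit the adjusted p was 0.0685.

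The ephrins, membrane-bound ligands of Eph receptors, moved less. Efna3 reached 6.16, 6.21, 6.07 and 5.90 in WT-WT, 6.49, 6.41, 6.51 and 6.62 in KO-WT, 5.46, 5.49, 5.76, 5.41 and 5.45 in WT-KO, and 5.73, 5.80, 5.47, 5.87 and 5.89 in KO-KO. Efna4 gave 6.67, 6.50, 6.65 and 6.55 in WT-WT, 6.98, 6.95, 6.87 and 6.89 in KO-WT, 6.10, 5.81, 6.13, 5.96 and 6.18 in WT-KO, and 6.16, 6.48, 6.27, 6.37 and 6.24 in KO-KO. Efnb3 read 5.37, 5.32, 5.48 and 5.21 in WT-WT, 5.63, 5.65, 5.57 and 5.76 in KO-WT, 5.38, 5.36, 5.36, 5.52 and 5.61 in WT-KO, and 5.78, 5.85, 5.85, 5.61 and 5.59 in KO-KO. The KO-WT libraries lay above the WT-WT libraries for each of these 3 ephrins. With Lin28a intact the log2 differences were 0.42 ± 0.11 for Efna3 (adjusted p = 0.0268, limma), 0.33 ± 0.09 for Efna4 (adjusted p = 0.0363) and 0.31 ± 0.10 for Efnb3 (adjusted p = 0.0493). Without Lin28a Efna4 was higher by 0.27 ± 0.08 (adjusted p = 0.0498) and Efnb3 by 0.29 ± 0.08 (adjusted p = 0.0387), with overlapping groups. These calls were close to the threshold. Leaving out 1 library at a time ended the call of Efna4 in 8 of 18 fits and that of Efnb3 in 13 of 18 with Lin28a intact, and in 15 and 10 of 18 without it. None of the 3 was called in either clone set alone. Without Lin28a the difference of Efna4 was 0.07 in clones 1 and 1-4 and 0.41 in E3 and C1. For Efna3 the adjusted p passed 0.05 on leaving out WT-WT replicate 3 (0.0791), WT-WT replicate 4 (0.108), KO-WT replicate 3 (0.0755) or KO-WT replicate 4 (0.0770).

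Sema5a, a transmembrane semaphorin, was the other member that fell with Lin28a intact. Sema5a stood at 6.59, 6.84, 6.86 and 6.66 in WT-WT, 6.30, 6.39, 5.99 and 6.51 in KO-WT, 5.92, 5.94, 5.78, 6.14 and 5.91 in WT-KO, and 5.94, 5.78, 5.75, 5.77 and 5.67 in KO-KO. The KO-WT libraries lay below all WT-WT libraries, while WT-KO and KO-KO overlapped. The difference was -0.44 ± 0.12 (adjusted p = 0.0263, limma) with Lin28a intact. It was -0.29 without KO-WT replicate 3 (adjusted p = 0.111), -0.39 without WT-WT replicate 2 (0.0784), -0.38 without WT-WT replicate 3 (0.100) and -0.48 without WT-WT replicate 4 (0.0571). Clones 1 and 1-4 alone gave -0.08 and clones E3 and C1 alone -0.64, neither of them called, and with the GC and length trend removed it was -0.28 (adjusted p = 0.0772).

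Of the receptors, Epha2 was higher without Trim71 in both Lin28a states. Epha2 measured 10.10, 10.24, 10.16 and 10.03 in WT-WT, 10.50, 10.64, 10.86 and 10.85 in KO-WT, 10.02, 10.37, 9.98, 9.90 and 10.11 in WT-KO, and 10.72, 10.56, 10.70, 10.64 and 10.57 in KO-KO. Groups did not overlap in either comparison. The log2 difference was 0.58 ± 0.10 (adjusted p = 0.0029, limma) with Lin28a intact and 0.56 ± 0.09 (adjusted p = 0.000867) without it. Clones E3 and C1 alone gave 0.46 (adjusted p = 0.163) and 0.55 (adjusted p = 0.0578), and the fit of WT-WT and KO-WT alone gave 0.64 (adjusted p = 0.0532). Plxnb2, the plexin left out of the member list, was also higher in both comparisons, by 0.69 ± 0.08 (adjusted p = 0.00013) and 0.71 ± 0.07 (adjusted p = 1.09e-05).

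A further 4 receptors were called without Lin28a but not with it. Robo4 reached 4.33, 4.29, 4.55 and 4.30 in WT-WT, 4.38, 4.54, 4.88 and 4.74 in KO-WT, 4.01, 4.40, 3.98, 3.96 and 3.91 in WT-KO, and 4.74, 4.56, 4.90, 4.32 and 4.77 in KO-KO. Nrp2 gave 7.48, 7.78, 7.33 and 7.55 in WT-WT, 7.35, 7.44, 7.02 and 7.32 in KO-WT, 7.59, 7.88, 7.51, 7.79 and 7.31 in WT-KO, and 7.10, 6.70, 6.73, 7.32 and 7.27 in KO-KO. Robo4, a Robo family receptor known from blood vessels, was higher by 0.60 ± 0.13 (adjusted p = 0.00829, limma) and Nrp2, a co-receptor of secreted semaphorins, was lower by -0.59 ± 0.14 (adjusted p = 0.0175). The compared groups overlapped for both genes. For Robo4 the highest WT-KO library, replicate 2, read 4.40 against 3.91 to 4.01 in the other 4. In the E3 and C1 clones Robo4 was not called (0.48, adjusted p = 0.304). Nrp2 was called in neither clone set alone, at -0.26 (adjusted p = 0.254) in clones 1 and 1-4 and -0.81 (adjusted p = 0.0699) in E3 and C1. It also lost its call without KO-KO replicate 2 (adjusted p = 0.0739), KO-KO replicate 3 (0.0574), WT-KO replicate 2 (0.0569) or WT-KO replicate 4 (0.0610).

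The other 2 were the Eph receptors Epha10 and Ephb6, which lack an active kinase. Epha10 read 4.51, 4.51, 4.32 and 4.28 in WT-WT, 4.30, 4.34, 4.30 and 4.34 in KO-WT, 4.45, 4.66, 4.51, 4.66 and 4.40 in WT-KO, and 4.23, 4.15, 4.14, 4.24 and 4.49 in KO-KO. Ephb6 stood at 5.49, 5.48, 5.53 and 5.47 in WT-WT, 5.51, 5.46, 5.31 and 5.47 in KO-WT, 5.86, 5.57, 5.76, 5.76 and 5.77 in WT-KO, and 5.36, 5.58, 5.45, 5.55 and 5.44 in KO-KO. The log2 difference was -0.29 ± 0.09 for Epha10 (adjusted p = 0.0479, limma) and -0.27 ± 0.07 for Ephb6 (adjusted p = 0.0309), with overlapping groups. Leaving out 1 library ended the call of Epha10 in 14 of 18 fits and that of Ephb6 in 7 of 18. In clones 1 and 1-4 alone the differences were -0.06 and -0.41, and in E3 and C1 -0.44 and -0.17, none of them called. None of the 7 plexins and neuropilins was called with Lin28a intact, where 2 had an unadjusted limma p under 0.05 (as did 29.2% of all genes), and of those tested without Lin28a only Nrp2 was.

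No member's response to Trim71 loss differed between the Lin28a states by the limma interaction test, in which 3 of all genes (0.02%) were called. At an unadjusted p under 0.05 there were 2 members, against 15.1% of all genes: Sema3b (-0.40 ± 0.15, adjusted p = 0.269) and Efna2 (-0.26 ± 0.11, adjusted p = 0.286). For Ntn1 the interaction was -0.22 (95% interval -0.53 to 0.10), and for Sema5a 0.29 (-0.06 to 0.63), and both intervals include 0.

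**Figure D2:**
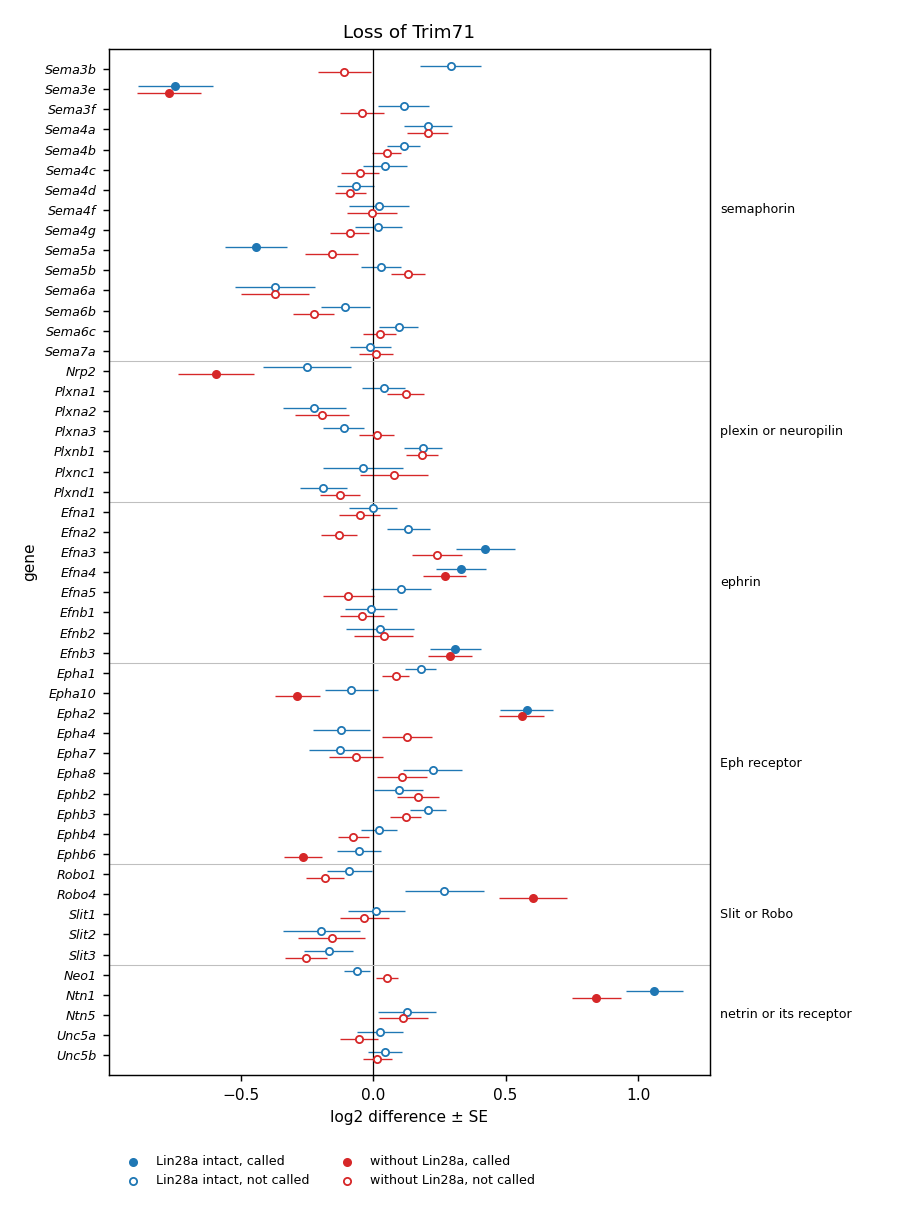
Log2 difference on loss of Trim71 (x axis, bars are the SE) for the 50 genes (y axis, by family), with Lin28a intact (blue, KO-WT minus WT-WT) and without it (red, KO-KO minus WT-KO). Filled points are called at an adjusted p under 0.05: Ntn1 lies furthest right, at 1.06 and 0.84, and Sema3e furthest left, at -0.75 and -0.77.

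Loss of Lin28a was compared within each Trim71 state, WT-KO with WT-WT and KO-KO with KO-WT, which again share no library with each other; WT-WT and the other genotypes also serve in the Trim71 comparisons. The cells without Lin28a had less of the ephrins Efnb2, Efnb1, Efna3 and Efna4, of the receptors Epha4, Epha1 and Unc5b, and of the semaphorins Sema4c, Sema5a, Sema6a and Sema7a, and more of the receptors Ephb2, Robo1, Neo1 and 4 plexins. With Trim71 intact 29 of the 50 members were called, 18 higher and 11 lower, which is 58% against 42.4% of all genes (20.3% higher and 22% lower), with a median difference of 0.11 for the members and -0.01 for all genes. Without Trim71 28 were called, 16 higher and 12 lower, which is 56% against 42.8% (20.8% higher and 22% lower), with medians of 0.03 and -0.0008. In 26 members the call was made in both comparisons with 1 direction, 15 higher and 11 lower, where 28.2% of all genes were so called (13.8% higher and 14.5% lower). Groups did not overlap for 27 and 25 members, against 40.8% and 40.7% of all genes. The clones differ along with Lin28a, as stated above. Unc5a, counted as higher in each comparison, passed the filter only through libraries without Lin28a.

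Markers of other cell types moved with the Lin28a state. Of all genes 22% were called lower in each comparison of Lin28a states, and 20.3% and 20.8% higher. All 7 tested primitive endoderm markers and 5 of 7 trophectoderm markers were called lower with Trim71 intact, and 5 of 7 of each list without Trim71. The summed log2 level of the trophectoderm list ran from 12.15 to 12.56 in the libraries with Lin28a and from 9.95 to 10.39 in those without it, and that of the primitive endoderm list from 11.40 to 12.16 with Lin28a and 10.16 to 11.05 without it. Of 9 neuronal markers 7 were called higher and 1 lower with Trim71 intact, with sums of 10.67 to 10.83 in WT-WT and 11.26 to 11.49 in WT-KO, and 5 higher and 1 lower without Trim71. Stmn2 made up most of the neuronal sum, at 10.04 in WT-WT and 10.69 in WT-KO. The fibroblast list summed to 7.03 to 7.29 with Lin28a and 6.59 to 6.92 without it. In that list Col1a1 and Col1a2 stood at 5.26 and 4.69 in WT-WT and at 4.39 and 2.81 in WT-KO. Thy1 did not fall, at 5.18 in WT-WT and 5.32 in WT-KO. Of 6 tested endothelial markers 4 were called lower and 1 higher with Trim71 intact, and 3 lower and 1 higher without Trim71. The vascular receptor Flt1 was lower by -1.39 and -1.31, and the adhesion molecule Pecam1 higher by 0.23 and 0.33. Pecam1 was the most abundant of the list, whose sum was 10.47 to 10.83 with Lin28a and 10.71 to 10.97 without it, and the endothelial cadherin Cdh5 stayed below 1 in every library. Of the 9 embryonic stem cell markers 7 were called higher and none lower with Trim71 intact, and 5 higher and none lower without Trim71. The part of these cell types in the results on Lin28a was not tested.

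Of the ephrins, 4 of 8 (50%) were called in each comparison, all of them lower. Of all genes 42.4% and 42.8% were called, 22% lower in each comparison. Efnb2, a ligand of EphB4 and EphA4 best known from arteries, fell furthest. Efnb2 measured 6.90, 7.09, 6.89 and 6.80 in WT-WT, 6.69, 6.98, 7.03 and 7.09 in KO-WT, 5.43, 5.93, 5.31, 5.49 and 5.46 in WT-KO, and 5.68, 5.41, 5.59, 5.54 and 5.61 in KO-KO. Efnb1 reached 5.04, 5.14, 5.06 and 5.26 in WT-WT, 5.16, 4.95, 5.29 and 5.07 in KO-WT, 4.37, 4.46, 4.45, 4.25 and 4.22 in WT-KO, and 4.37, 4.16, 4.36, 4.30 and 4.36 in KO-KO. Both genes were lower in every library without Lin28a than in every library with it. The log2 difference for Efnb2 was -1.40 ± 0.12 (adjusted p = 1.92e-07, limma), a 2.63-fold decrease, with Trim71 intact and -1.38 ± 0.12 (adjusted p = 2.18e-07) without it. For Efnb1 it was -0.78 ± 0.09 (adjusted p = 5.74e-06) and -0.81 ± 0.09 (adjusted p = 3.63e-06).

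The values of Efna3 and Efna4 were given above, and their groups too were apart by Lin28a state. Efna3 differed by -0.57 ± 0.10 (adjusted p = 0.000375, limma) with Trim71 intact and -0.75 ± 0.10 (adjusted p = 2.90e-05) without it. Efna4 differed by -0.56 ± 0.09 (adjusted p = 0.000107) and -0.62 ± 0.09 (adjusted p = 3.97e-05). With Lin28a intact both were higher on loss of Trim71, and both were lower on loss of Lin28a in each comparison. The remaining ephrins, Efna1, Efna2, Efna5 and Efnb3, had no call on loss of Lin28a.

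Semaphorins went both ways, with 8 of 15 called in each comparison, which is 53.3% against 42.4% and 42.8% of all genes. With Trim71 intact 4 were higher and 4 lower, and without it 3 were higher and 5 lower. Sema4c gave 5.97, 5.98, 6.07 and 5.94 in WT-WT, 6.08, 5.93, 6.02 and 6.11 in KO-WT, 5.08, 5.08, 5.36, 5.15 and 5.16 in WT-KO, and 5.22, 5.16, 5.04, 5.06 and 5.10 in KO-KO. Sema5b read 6.18, 6.36, 6.09 and 6.20 in WT-WT, 6.20, 6.25, 6.22 and 6.27 in KO-WT, 6.82, 6.78, 6.61, 6.76 and 6.75 in WT-KO, and 6.83, 6.87, 6.84, 7.00 and 6.84 in KO-KO. Sema4c, a transmembrane ligand of B-type plexins, was at most 5.36 in the libraries without Lin28a and at least 5.93 in those with it, and Sema5b showed the opposite split. Sema4c differed by -0.82 ± 0.08 (adjusted p = 5.56e-07, limma) with Trim71 intact and -0.92 ± 0.08 (adjusted p = 1.63e-07) without it. Sema5b differed by 0.54 ± 0.07 (adjusted p = 1.75e-05) and 0.64 ± 0.07 (adjusted p = 2.98e-06).

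The relative of Sema5b, Sema5a, moved the other way, by -0.80 ± 0.11 (adjusted p = 2.42e-05, limma) with Trim71 intact and -0.52 ± 0.11 (adjusted p = 0.00122) without it. Sema6a stood at 6.88, 7.19, 6.87 and 6.93 in WT-WT, 6.46, 6.71, 6.49 and 6.72 in KO-WT, 6.16, 6.74, 6.24, 6.64 and 6.24 in WT-KO, and 6.36, 5.83, 5.85, 6.01 and 6.11 in KO-KO. Sema6a, a transmembrane ligand of A-type plexins, was lower without Lin28a by -0.56 ± 0.14 in each comparison (adjusted p = 0.00407 and 0.00401), with groups that did not overlap. In clones E3 and C1 alone Sema6a was not called with Trim71 intact (adjusted p = 0.0666). Among the smaller semaphorin differences, Sema4d and Sema6c were called higher and Sema7a lower in both comparisons, at sizes from 0.20 to 0.28 and from -0.23 to -0.25. In both comparisons the calls of all 3 genes were lost in each clone set taken alone.

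Ntn1 was higher without Lin28a, by 0.58 ± 0.10 (adjusted p = 0.000206, limma) with Trim71 intact and 0.37 ± 0.10 (adjusted p = 0.00708) without it, with groups that did not overlap. In clones 1 and 1-4 alone the second difference was 0.24 (adjusted p = 0.315). Of the Slits, the secreted ligands of Robo receptors, Slit2 and Slit3 were called higher and Slit1 was not. Slit2 measured 5.34, 4.87, 5.48 and 5.06 in WT-WT, 5.13, 5.10, 4.77 and 4.97 in KO-WT, 5.39, 5.65, 5.82, 5.82 and 5.72 in WT-KO, and 5.67, 5.41, 5.59, 5.31 and 5.63 in KO-KO. The WT-KO and WT-WT libraries of Slit2 overlapped, and KO-KO lay above KO-WT. Slit2 differed by 0.49 ± 0.14 (adjusted p = 0.00812, limma) and 0.53 ± 0.14 (adjusted p = 0.00494). The first of these calls was lost without WT-WT replicate 2, the lowest of its group (adjusted p = 0.0512). In E3 and C1 neither call of Slit2 held, at 0.58 (adjusted p = 0.0577) and 0.44 (adjusted p = 0.0722). Slit3 differed by 0.35 ± 0.09 (adjusted p = 0.00365, limma) and 0.27 ± 0.09 (adjusted p = 0.0197). Its first call was lost in E3 and C1 (0.32, adjusted p = 0.094), and its second in 4 of 18 fits with 1 library left out. In clones 1 and 1-4 the first call of Slit2 (0.35) and both of Slit3 (0.41 and 0.21) were lost.

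**Figure D3:**
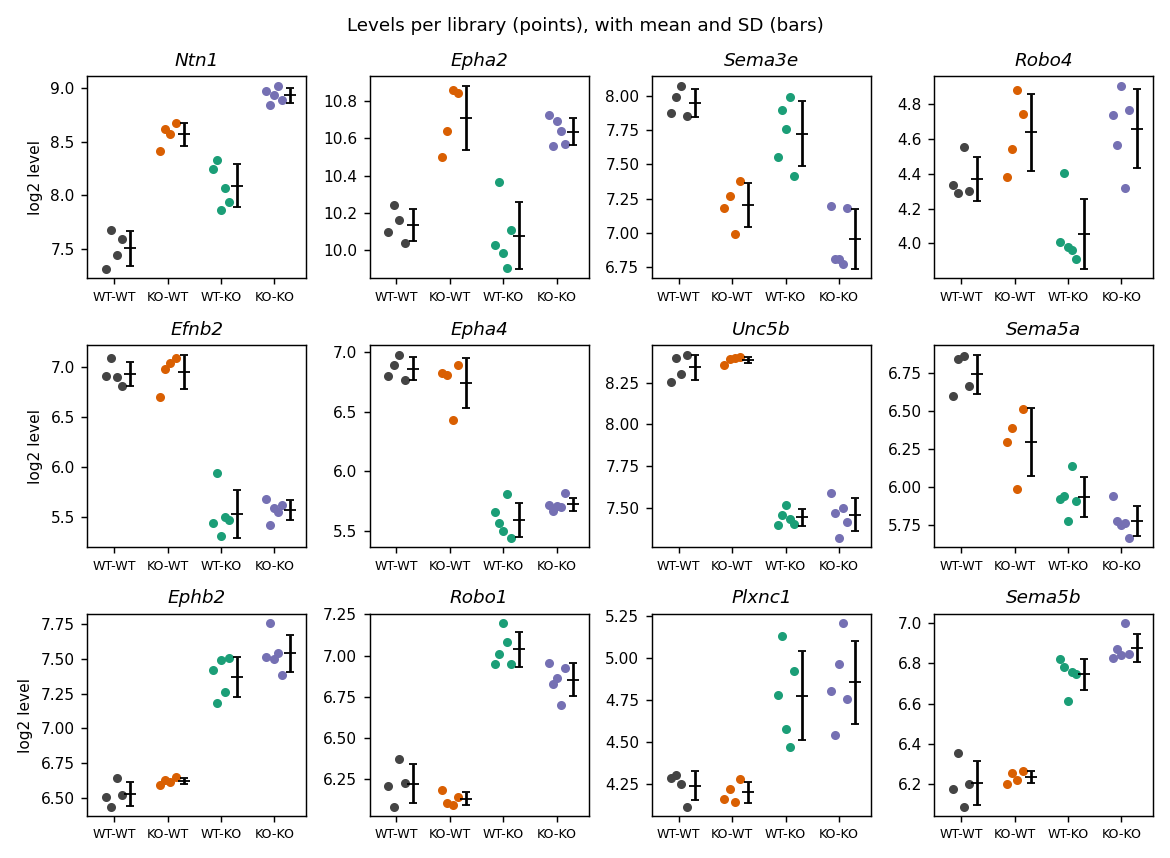
Log2 level of 12 axon guidance genes in each library (points, by genotype on the x axis), with the mean and SD of each genotype beside them (bars). Ntn1 steps up from WT-WT through WT-KO and KO-WT to KO-KO, Epha2 and Sema3e separate by Trim71 state, and Efnb2, Epha4, Unc5b, Ephb2, Robo1, Plxnc1 and Sema5b separate by Lin28a state; y axes differ between panels and do not start at 0.

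Eph receptors split by class member. Epha4 reached 6.80, 6.90, 6.98 and 6.77 in WT-WT, 6.83, 6.81, 6.43 and 6.89 in KO-WT, 5.66, 5.56, 5.50, 5.80 and 5.44 in WT-KO, and 5.71, 5.66, 5.71, 5.70 and 5.82 in KO-KO. Ephb2 gave 6.51, 6.44, 6.64 and 6.52 in WT-WT, 6.59, 6.63, 6.61 and 6.65 in KO-WT, 7.42, 7.18, 7.49, 7.26 and 7.51 in WT-KO, and 7.51, 7.75, 7.50, 7.54 and 7.39 in KO-KO. Epha4, which binds ephrins of both classes, was lower in every library without Lin28a, and Ephb2, a receptor of B-class ephrins, was higher in every one. Epha4 differed by -1.27 ± 0.10 (adjusted p = 8.36e-08, limma), a 2.41-fold decrease, with Trim71 intact and -1.02 ± 0.10 (adjusted p = 9.03e-07) without it. Ephb2 differed by 0.85 ± 0.09 (adjusted p = 1.19e-06) and 0.92 ± 0.09 (adjusted p = 4.69e-07). In each comparison Efnb2 and Epha4 were the 2 members called at 2-fold or more, where 1.35% and 1.38% of all genes were.

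Epha1 was lower, by -0.37 ± 0.05 (adjusted p = 6.45e-05, limma) with Trim71 intact and -0.46 ± 0.05 (adjusted p = 6.64e-06) without it, and Ephb4 was higher by 0.34 ± 0.06 (adjusted p = 0.000467) and 0.24 ± 0.06 (adjusted p = 0.00554). Epha8 and Ephb6 were called higher with Trim71 intact only, by 0.30 and 0.25; whether the 2 Trim71 states differ in these genes was tested by the interaction above, which called no member. Epha2, the most abundant member per kilobase, had log2 differences of -0.06 and -0.08 for loss of Lin28a and no call in either comparison.

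Every member plexin called on loss of Lin28a was higher: 4 of the 7 plexins and neuropilins with Trim71 intact and 5 of 7 without it. These are 57.1% and 71.4%, against 42.4% and 42.8% of all genes (20.3% and 20.8% higher). Plxnb2, the plexin left out of the member list, went the other way, by -0.22 ± 0.07 (adjusted p = 0.024, limma) and -0.20 ± 0.07 (adjusted p = 0.0404). Plxna3 read 7.21, 7.22, 7.32 and 7.31 in WT-WT, 7.04, 7.12, 7.29 and 7.16 in KO-WT, 7.68, 7.85, 7.85, 7.64 and 7.81 in WT-KO, and 7.92, 7.81, 7.77, 7.71 and 7.68 in KO-KO. Plxnb1 stood at 7.98, 8.01, 8.02 and 8.02 in WT-WT, 8.02, 8.24, 8.30 and 8.21 in KO-WT, 8.30, 8.51, 8.29, 8.22 and 8.38 in WT-KO, and 8.59, 8.52, 8.53, 8.52 and 8.45 in KO-KO. Plxnc1 measured 4.29, 4.30, 4.25 and 4.11 in WT-WT, 4.16, 4.22, 4.14 and 4.28 in KO-WT, 4.78, 5.13, 4.58, 4.47 and 4.92 in WT-KO, and 4.81, 4.54, 4.97, 5.21 and 4.76 in KO-KO. For these 3 receptors, which bind semaphorins of different classes, all libraries without Lin28a lay above the libraries with Lin28a of the same Trim71 state. Plxna3 differed by 0.50 ± 0.07 (adjusted p = 4.34e-05, limma) with Trim71 intact and 0.63 ± 0.07 (adjusted p = 4.54e-06) without it. Plxnb1 differed by 0.33 ± 0.07 in each (adjusted p = 0.000835 and 0.000896). Plxnc1, the receptor of Sema7a, differed by 0.54 ± 0.14 (adjusted p = 0.00552) and 0.66 ± 0.14 (adjusted p = 0.00135).

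Plxna3 kept its call in both clone sets, while Plxnb1 and Plxnc1 did not in the E3 and C1 clones with Trim71 intact (adjusted p = 0.0702 and 0.189) and in clones 1 and 1-4 alone without Trim71 (0.0539 and 0.0755). Plxna2 was called in both comparisons, by 0.32 ± 0.11 (adjusted p = 0.0287) and 0.35 ± 0.11 (adjusted p = 0.0182), with overlapping groups, and leaving out 1 library ended the first call in 6 of 18 fits and the second in 2. In clones 1 and 1-4 alone the first difference was 0.12 (adjusted p = 0.542) and the second 0.66, and in E3 and C1 alone they were 0.49 and 0.21 (adjusted p = 0.201 for the second). With the GC and length trend removed the second was 0.21 (adjusted p = 0.122). Plxnd1, the receptor of Sema3e, was called without Trim71 (0.21 ± 0.08, adjusted p = 0.0458), a call lost in 14 of 18 fits with 1 library left out and in each clone set alone. Plxna1, the most abundant plexin per kilobase, was called in neither.

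The Robo and netrin receptors also divided. Robo1 reached 6.21, 6.08, 6.37 and 6.23 in WT-WT, 6.19, 6.11, 6.10 and 6.14 in KO-WT, 6.95, 7.01, 7.20, 7.08 and 6.95 in WT-KO, and 6.95, 6.83, 6.86, 6.70 and 6.93 in KO-KO. Unc5b gave 8.26, 8.40, 8.31 and 8.42 in WT-WT, 8.36, 8.39, 8.40 and 8.40 in KO-WT, 7.40, 7.46, 7.52, 7.43 and 7.40 in WT-KO, and 7.59, 7.47, 7.32, 7.50 and 7.41 in KO-KO. Robo1, a receptor of Slits, was higher in every library without Lin28a, and Unc5b, a netrin receptor with repulsive function, was lower in every one. Robo1 differed by 0.81 ± 0.08 (adjusted p = 7.75e-07, limma) with Trim71 intact and 0.72 ± 0.08 (adjusted p = 2.78e-06) without it. Unc5b differed by -0.90 ± 0.06 (adjusted p = 9.93e-09) and -0.93 ± 0.06 (adjusted p = 7.68e-09). Neo1, a receptor of netrins and of repulsive guidance molecules, was higher by 0.39 ± 0.05 (adjusted p = 6.74e-06) and 0.50 ± 0.05 (adjusted p = 4.24e-07). The weakly expressed Unc5a read higher by 0.32 ± 0.08 (adjusted p = 0.00388) and 0.24 ± 0.08 (adjusted p = 0.0207). It passed the filter only through WT-KO and KO-KO libraries, so its calls carry little weight. In clones E3 and C1 alone neither was called (0.30, adjusted p = 0.126, and 0.25, adjusted p = 0.109). Leaving out 1 library ended the second call in 4 of 18 fits.

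Of the 29 members called with Trim71 intact, 16 kept their call in every alternative in which they were tested: Efna3, Efna4, Efnb1, Efnb2, Epha1, Epha4, Ephb2, Ephb4, Neo1, Ntn1, Plxna3, Robo1, Sema4c, Sema5a, Sema5b and Unc5b. Efnb1 lay below the stricter filter and was not tested there. Of the 28 called without Trim71, 15 did: the same genes but for Ephb4 and Ntn1, with Sema6a in addition.

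**Figure D4:**
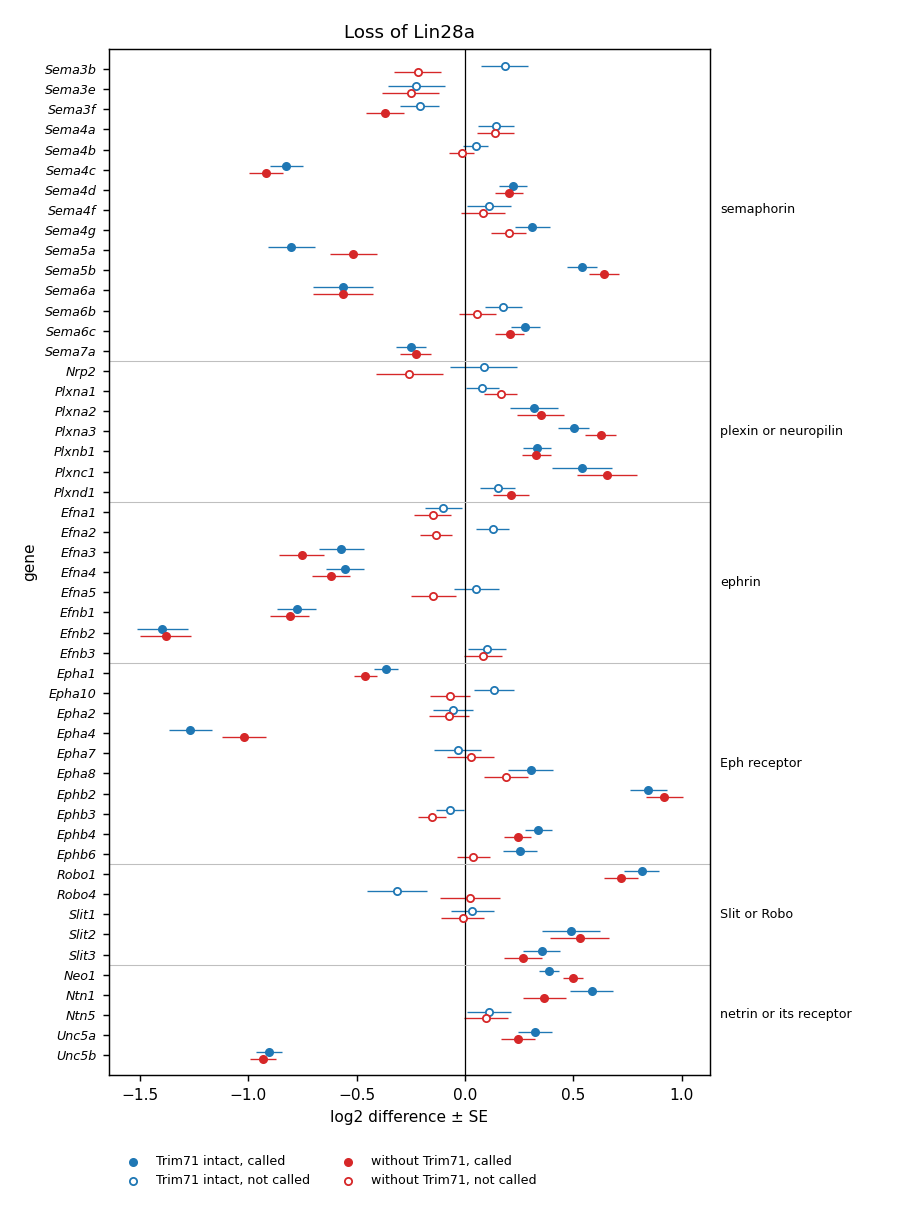
Log2 difference on loss of Lin28a (x axis, bars are the SE) for the 50 genes (y axis, by family), with Trim71 intact (blue, WT-KO minus WT-WT) and without it (red, KO-KO minus KO-WT). Filled points are called at an adjusted p under 0.05: Efnb2 and Epha4 lie furthest left, at -1.40 and -1.27 with Trim71 intact, Ephb2 and Robo1 furthest right, at 0.85 and 0.81, and all filled plexins lie right of 0.

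Cells without both genes were compared with cells that carried both (KO-KO with WT-WT), a comparison that uses libraries of those above. In it 31 members were called, 17 higher and 14 lower, which is 62% against 45.6% of all genes (21% higher and 24.6% lower), with a median difference of 0.09 against -0.02. Groups did not overlap for 29 members, against 44.5% of all genes. The members called higher include Unc5a, which passed the filter only through libraries without Lin28a. Ntn1 rose by 1.43 ± 0.10 (adjusted p = 1.47e-08, limma), 2.69-fold, and Ephb2 by 1.01 ± 0.09 (adjusted p = 1.35e-07). Efnb2 fell by 1.36 (SE 0.12, adjusted p = 2.20e-07), Epha4 by 1.14 (SE 0.10, adjusted p = 2.20e-07) and Sema3e by 1.00 (SE 0.13, adjusted p = 1.61e-05). These 5 genes had groups that did not overlap, and all but Sema3e were called at 2-fold or more, where 1.5% of all genes were. Sema5a and Sema6a fell by 0.96 and 0.93. Sema4a and Plxna1 were called in this comparison alone among the 5 pairwise ones, at 0.35 ± 0.08 (adjusted p = 0.00324) and 0.20 ± 0.08 (adjusted p = 0.0407), and leaving out 1 library ended the call of Plxna1 in 10 of 18 fits.

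Across all 6 tests 39 of the 50 members were called at least once, as were 65.9% of all genes. The 11 without a call were the ephrins Efna1, Efna2 and Efna5, the receptors Epha7 and Ephb3, the netrin Ntn5, the semaphorins Sema3b, Sema4b, Sema4f and Sema6b, and Slit1.

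Members with a let-7 seed match in the 3′ UTR did not all move one way. On loss of Lin28a 11 of the 13 had a positive difference with Trim71 intact and 9 without it. Of the 37 members without a match 21 and 18 did. Of the 13, 7 were called on loss of Lin28a with Trim71 intact, 6 higher (Ephb2, Ntn1, Plxna2, Plxnc1, Sema4g and Unc5a) and 1 lower (Sema4c), with a median difference of 0.15, and in the 37 members without one the median was 0.08. Without Trim71 8 were called, 6 higher and 2 lower, with medians of 0.20 and -0.01. These counts are 53.8% and 61.5% of the 13, where 43.9% and 45.5% of all genes with a match and 59.5% and 54.1% of the other members were called. Unc5a, counted as higher in both, passed the filter only through libraries without Lin28a. Over all tested genes the medians with and without a match were -0.0018 and -0.01 with Trim71 intact, and 0.04 and -0.01 without it. On loss of Trim71 1 of the 13 (7.69%) was called with Lin28a intact (Ntn1, higher) and 2 (15.4%) without it (Ntn1, higher, and Nrp2, lower), where 11.5% and 9.31% of all genes with a match and 16.2% and 18.9% of the other members were.

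The promoters of the members were rich in G and C. RefSeq promoters (build GRCm38.p6, 250 bases before to 50 after a transcript start) were given for 43 of the 50 members, 55 in all, with a median GC content of 65.3% against 52.7% of 32851 promoters, and a median of 23 CpG against 7. The GC box GGGCGG, read on either strand, occurred in 43 of the 55 (78.2%) and in 35.7% of all promoters, and TATAAA in 2 (3.64%) against 13.6%. The 32851 promoters were not limited to tested genes, while the members had passed the expression filter. The members were not compared with the promoters of tested genes alone. Of the members called the same way on both losses of Lin28a, 11 of 14 higher genes and 8 of 10 lower genes with a promoter held a GC box. The 250 bases before the start of Efnb2, which fell furthest (chr8:8661243-8661492, minus strand), and of Ephb2, which rose furthest (chr4:136836013-136836262, minus strand), are shown with GC boxes in capitals; the first has 3 and the second none.
Efnb2: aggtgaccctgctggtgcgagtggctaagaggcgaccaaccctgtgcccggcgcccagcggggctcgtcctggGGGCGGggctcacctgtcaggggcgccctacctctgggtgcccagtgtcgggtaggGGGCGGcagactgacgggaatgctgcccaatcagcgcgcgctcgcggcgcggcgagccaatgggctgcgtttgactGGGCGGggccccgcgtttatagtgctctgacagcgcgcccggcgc
Ephb2: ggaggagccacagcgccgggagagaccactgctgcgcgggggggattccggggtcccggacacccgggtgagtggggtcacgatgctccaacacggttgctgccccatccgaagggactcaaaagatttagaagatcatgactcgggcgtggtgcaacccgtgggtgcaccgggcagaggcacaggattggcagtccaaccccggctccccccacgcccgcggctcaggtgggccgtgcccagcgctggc

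Genes that act with these cues inside the cell, or as co-receptors and adhesion partners, were taken from a list of 54, of which 51 were tested. On loss of Trim71 6 were called with Lin28a intact, 3 higher and 3 lower, and 6 without it, 1 higher and 5 lower, which is 11.8% in each, against 11.2% and 8.38% of all genes. Dpysl3, a collapsin response mediator of semaphorin signals, was lower in both, by -0.43 ± 0.06 (adjusted p = 0.000999, limma) and -0.42 ± 0.05 (adjusted p = 0.000246). Pitpna, a phosphatidylinositol transfer protein linked to netrin signals, was higher in both, by 0.24 ± 0.04 (adjusted p = 0.00368) and 0.17 ± 0.04 (adjusted p = 0.00847).

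On loss of Lin28a 27 of the 51 partners were called with Trim71 intact, 17 higher and 10 lower, and 32 without it, 20 higher and 12 lower, which is 52.9% and 62.7% against the shares of all genes given above. Mical1, an actin oxidase downstream of plexins, rose by 0.85 ± 0.06 and 0.83 ± 0.06. The adhesion molecule Flrt3, which binds UNC5 and Robo receptors, fell by 0.81 (SE 0.13) and 0.83 (SE 0.13). Mical2 fell by 0.67 (SE 0.10) and 0.40 (SE 0.10). L1cam, a neural adhesion molecule, rose by 0.43 ± 0.12 and 0.73 ± 0.12. No partner was called in the limma interaction test.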

How the data were processed

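RNA from 19 libraries was read as Illumina TruSeq paired-end libraries on a HiSeq1500, per the labels' protocols. The submitters' processing notes name CASAVA 1.8, STAR and DESeq2, with no role given; the counting tool, annotation and build are not given in the sources used here. The deposited values are on a log2 scale, as judged from their range of -0.71 to 16.30, with the base inferred. Summed on the linear scale a library held 7297919 to 7677445 units, which is not a read depth. Day effects had already been taken out of the deposited values: refitted, day terms reached at most 1.7e-08, against 1.36 with days shuffled.

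Libraries were grouped by the labels into 4 genotypes. KO-WT replicate 5, the only library of its day, was dropped because it held the average of its group once day effects were removed. Genes reaching log2 of 10 in 4 libraries (14988) entered a linear model in limma (version 3.58.1, under R 4.3.3), moderated with eBayes and its trend option, that held genotype and day (10 residual degrees of freedom) and gave 6 contrasts, and p-values were adjusted by Benjamini-Hochberg over all genes tested. The day labels pair the libraries; a correlation check of that pairing is void, as the day effect is gone from the values. The fit was tested on simulated data.

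Members, gene lists and tests were chosen with earlier results of these data known. Called members are named, with per-library values for up to 6 higher and 6 lower per contrast. Transcript length, GC content and 3′ UTRs come from GENCODE release M21, microRNAs and promoters from RefSeq. Alternatives were the fit without day, no filter, a stricter filter (log2 of 50), a pseudocount of 10 added on the linear scale, scaling by the 75th percentile, removal of a GC and length trend, each clone set alone, only the genotypes compared, and each library left out. Day effects had been removed before any library was left out, so such fits are not independent of that library.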

Additional observations from a re-analysis of the deposited data

Results flagged for a closer look

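Within each genotype, the highest and lowest library of the 24 members with per-library values was compared with its neighbour, and a library was marked where the gap to the nearest other, as a share of the genotype's range, exceeded Dixon's 95% critical value. This marked 5 of 96 groups, and chance alone marks about 1 in 20. In WT-KO, replicate 3 of Efna3 read 5.763, with the next library at 5.485. In KO-KO, replicate 5 of Epha10 read 4.49 with the next at 4.2359, and replicate 4 of Sema5b read 6.9986 with the next at 6.8718. Robo4 was marked in both genotypes with intact Trim71: WT-WT replicate 3 read 4.5528 with the next at 4.3326, and WT-KO replicate 2 read 4.4042 with the next at 4.0109.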

How the results depend on the processing

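No difference of a member changed sign under any alternative in which it or the main value was called. With 7 members called on Trim71 loss with Lin28a intact, the fit with no replicate block (day left out) called 14, removal of a GC and length trend with the day block 4, clones E3 and C1 alone 2, clones 1 and 1-4 alone 2, and the 2 genotypes alone 1. With 9 called without Lin28a, these fits called 16 (no block), 2 (E3 and C1), 3 (1 and 1-4) and 5 (2 genotypes). For loss of Lin28a, clones E3 and C1 alone called 17 in place of 29 with Trim71 intact, and clones 1 and 1-4 alone 18 in place of 28 without Trim71; for loss of both, E3 and C1 alone called 17 in place of 31. These clone sets hold fewer libraries, and 1 KO-WT library in clones 1 and 1-4, which is assumed to vary like the other genotypes. Leaving out 1 library gave 3 to 8 calls on Trim71 loss with Lin28a intact, with 3 without WT-WT replicate 3, WT-WT replicate 4 or KO-WT replicate 3 and 4 without WT-WT replicate 2 or KO-WT replicate 4. It gave 5 to 8 without Lin28a, with 5 without WT-KO replicate 1, WT-KO replicate 4, KO-KO replicate 2 or KO-KO replicate 3. The ranges were 26 to 30 and 23 to 30 for loss of Lin28a, 25 to 32 for loss of both and 0 for the interaction. Over all genes, leaving out the day block moved the calls on Trim71 loss from 1674 to 4219 with Lin28a intact and from 1256 to 2618 without it, and those of the interaction from 3 to 673. The fit without day counts degrees of freedom that the removal of day effects had used. The GC and length fit covered 14724 of 14988 genes. Without read depth, the precision of low genes such as Unc5a and Slit3 could not be judged beyond the spread of libraries.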
